A study of Mus musculus with 6 samples.

Results

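The genes described here are 10 heat shock and chaperone genes, Hspa1a, Hspa1b, Hspa5, Hspa8, Hsp90aa1, Hsp90ab1, Hsph1, Dnajb1, Hspb1 and Bag3, chosen by symbol from the 18058 genes of the deposited table. All 10 were present, and all 10 were among the 16762 genes that passed the minimum for testing, a mean of at least 0.1 CPM (the read count of a gene scaled to the size of its library). RNA was sequenced from snap-frozen whole brainstems of 6 mice that were 1 month old. The 3 wild type (WT) mice were of the inbred strain C57BL/6J. The other 3 were Rag1-/- mice (B6.129S7-Rag1tm1Mom/J), which carry a germline null allele of Rag1 in every cell, and neither group had received an injection of cells. The Rag1 protein is a subunit of the enzyme that rearranges antigen receptor loci, so mice without it lack mature T and B lymphocytes. The comparison asked which brainstem transcripts differ between mice with and without these lymphocytes.

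Heat shock proteins bind unfolded or partly folded proteins, keep them from aggregating and pass them on for folding or degradation. In the cytosol, Hsp70 proteins work in cycles driven by ATP together with J proteins that deliver substrates, exchange factors that release ADP, and Hsp90 proteins that finish the folding of kinases and steroid receptors. A set of these genes is switched on by heat shock factor 1 when unfolded proteins build up, while others are made at a high level in unstressed neurons and glia, and the endoplasmic reticulum (ER) has its own members under the control of the unfolded protein response.

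Reads of the targeted gene were higher, not lower, in the Rag1-/- labelled libraries. Rag1 was at 0.246 ± 0.137 CPM (SD, n = 3) in WT against 3.18 ± 0.750 CPM (SD, n = 3) in the Rag1-/- labelled libraries. Its log2 fold change was 3.30 (adjusted p = 0.0120 by limma-trend). A value for the whole gene does not show which part of the gene the reads came from. The groups are therefore called by their labels, and each direction below rests on those labels. Estimated depth was between 31500000 and 46300000 reads. WT replicates 1 and 2 held 172 and 177 CPM of the X-inactivation transcript Xist, against 0.462 to 2.93 CPM in the other 4 libraries. Ddx3y, a gene of the Y chromosome, was at 0.283 and 0.215 CPM in these WT replicates and at 45.2 to 56.2 CPM in the other 4. By these transcripts WT replicates 1 and 2 were female and the other 4 libraries male, while the labels give no sex. Xist-high mice were therefore in the WT group alone. WT replicate 3 held 654 CPM of 4 pituitary transcripts, against 2.02 to 56.5 CPM in the others. Transcripts of brainstem neurons and hindbrain Hox genes summed to between 37.9 and 127 CPM and those of forebrain neurons to between 3.49 and 5.35 CPM, as the tissue label says. Summed transcripts of 5 oligodendrocyte markers were at 17230 to 20282 CPM in WT and at 22379 to 23917 CPM in the Rag1-/- labelled libraries, and those of 5 astrocyte markers at 2574 to 2721 and 2745 to 2873 CPM, with no overlap in either sum. All 5 oligodendrocyte genes were higher in every Rag1-/- labelled library than in any WT library, as were 3.98% of all genes tested. Of the astrocyte genes Slc1a2 alone was, at 1523 to 1697 CPM in WT and 1725 to 1804 CPM in the others. The part of these transcripts in the results below was not tested. In whole tissue, fewer cells of a type and less RNA per cell cannot be told apart.

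The 4 heat shock genes with the clearest separation, Hspa1a, Hsph1, Hspa5 and Dnajb1, were lower in every Rag1-/- labelled library than in all 3 WT libraries, by between -24.2% and -7.86% of the WT mean. Hspa8, Hsp90aa1 and Hsp90ab1, the most abundant of the 10, differed by between -3.62% and -1.85%. None of the 10 genes passed the test at an adjusted p under 0.05 (limma-trend with Benjamini-Hochberg adjustment), a threshold that 0.0477% of all genes tested passed, and 4 had an unadjusted p of 0.05 or less. All 4 were lower in the Rag1-/- labelled libraries, the direction in which 9.29% of all genes tested had such a p. Complete separation in this direction was also found for 4 of 10, beside 14.4% of all genes tested. All 10 log2 fold changes (Rag1-/- labelled minus WT, of CPM + 0.1) were below 0, but so were 67.7% of those of all genes tested. Their median was -0.11, and that of all genes tested was -0.05.

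When the libraries were rescaled so that the median gene was level (median of ratios), the median of all genes moved to -0.01 and that of the 10 genes to -0.07. Then 53.0% of all genes and 8 of the 10 were below 0, the exceptions being Hspa8 and Hsp90aa1, and complete separation in this direction was found for 4 of the 10 beside 7.58% of all genes. Without replicate 3 labelled Rag1-/- the median of the 10 was -0.21. Without replicate 2 labelled Rag1-/- it was -0.07.

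**Figure D1:**
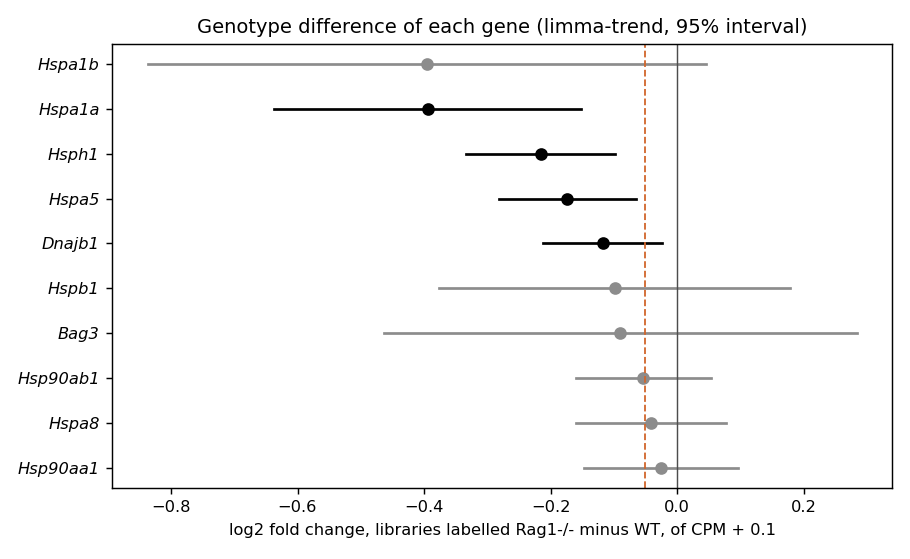
Log2 fold change (Rag1-/- labelled libraries minus WT, of CPM + 0.1) of each of the 10 genes on the horizontal axis, with its 95% interval from limma-trend. Black points are the 4 genes lower in every Rag1-/- labelled library than in any WT library, and the dashed line is the median of all genes tested, -0.05. The intervals of Hspa1a, Hsph1, Hspa5 and Dnajb1 lie below 0, and those of the other 6 genes include 0.

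Hspa1a and Hspa1b encode the heat-inducible Hsp70 proteins of the cytosol, which are scarce in unstressed tissue and are classic targets of heat shock factor 1. Hspa1a (mm10 chr17:34969359-34972156, minus strand) was at 14.6, 12.6 and 15.9 CPM in WT replicates 1 to 3 and at 10.9, 9.79 and 12.03 CPM in the Rag1-/- labelled libraries. The lowest WT library was therefore above the highest of the others, by a margin smaller than the spread within either group. Its means were 14.4 ± 1.67 and 10.9 ± 1.12 CPM (SD, n = 3), and the log2 difference was -0.39 (SE 0.11, 95% interval -0.64 to -0.15, adjusted p = 0.331 by limma-trend). By exact permutation, two-sided, p was 0.1, and 3 libraries against 3 cannot give a smaller one.

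Hspa1b (chr17:34956429-34959238, minus strand) was at 9.40, 7.53 and 5.22 CPM in WT and at 5.44, 4.86 and 6.07 CPM in the Rag1-/- labelled libraries. WT replicate 3 was below replicates 1 and 3 labelled Rag1-/-, so the groups overlapped. With means of 7.38 ± 2.09 and 5.46 ± 0.606 CPM (SD, n = 3), its log2 fold change was -0.40 (SE 0.19, 95% interval -0.84 to 0.05, adjusted p = 0.471 by limma-trend), almost that of Hspa1a with a wider error. Leaving out WT replicate 1 gave -0.20 and leaving out WT replicate 3 gave -0.62. With a term for the Xist-high libraries, in which WT replicate 3 alone stands for WT, the value was 0.06.

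The pair is nearly identical in coding sequence, so many reads cannot be assigned to 1 copy with certainty. The coding sequences were identical at 99.6% of aligned bases, and 82.3% of all windows of 50 bases in the coding sequence of Hspa1a were found unchanged in Hspa1b, as were 58.8% of those in its whole transcript. Hspa8, a relative whose coding bases were 74.7% identical to those of Hspa1a, shared no such window with it. The 250 bases before the start of each gene, read from RefSeq promoters on GRCm38.p6 (the assembly called mm10), differed at 3 positions. They are shown because the 2 copies lie on the same strand, 10120 bases apart, and carry the same letters GAANNTTC in capitals, the inverted pair of units that heat shock factors bind, 104 to 97 bases before the start. These letters read the same on both strands and were present in 6.69% of the 32851 mouse promoter windows of this length, and their presence is a description of the sequence only.
Hspa1a (chr17:34972157-34972406, minus strand): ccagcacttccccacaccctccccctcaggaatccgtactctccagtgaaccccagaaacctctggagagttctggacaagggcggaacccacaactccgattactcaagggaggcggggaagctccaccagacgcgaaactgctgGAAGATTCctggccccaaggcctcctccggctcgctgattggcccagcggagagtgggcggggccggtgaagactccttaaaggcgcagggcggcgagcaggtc
Hspa1b (chr17:34959239-34959488, minus strand): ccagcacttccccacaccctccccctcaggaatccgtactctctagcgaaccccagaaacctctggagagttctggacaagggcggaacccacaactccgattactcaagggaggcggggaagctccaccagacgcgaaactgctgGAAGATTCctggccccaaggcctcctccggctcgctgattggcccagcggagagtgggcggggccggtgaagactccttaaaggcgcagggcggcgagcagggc

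The sum of the pair does not depend on how reads were split between the copies. It was 24.0, 20.2 and 21.2 CPM in WT and 16.4, 14.7 and 18.1 CPM in the Rag1-/- labelled libraries. Again no library of one group reached into the other, and the means of 21.8 ± 2.01 and 16.4 ± 1.72 CPM (SD, n = 3) differed by -24.8%. Tested as 1 gene in place of the pair, the sum had a log2 fold change of -0.41 (SE 0.09, 95% interval -0.62 to -0.20, adjusted p = 0.286 by limma-trend). The share of the sum assigned to Hspa1b was 39.1%, 37.4% and 24.7% in WT and 33.2%, 33.2% and 33.5% in the others. WT replicate 3 thus had the highest Hspa1a value and the lowest share of Hspa1b in the series.

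**Figure D2:**
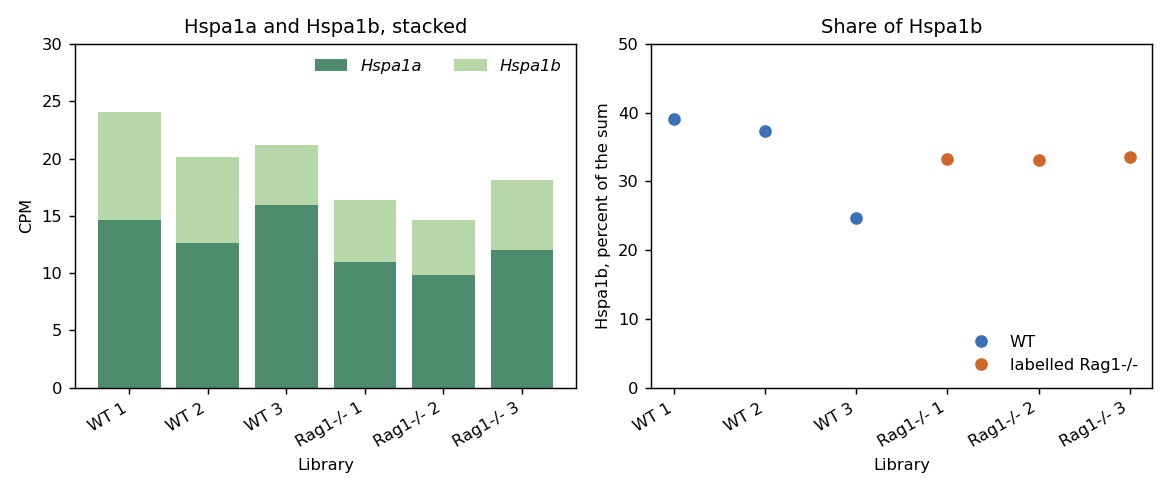
Left, CPM of Hspa1a and Hspa1b stacked for each of the 6 libraries, with sums of 20.2 to 24.0 CPM in WT and 14.7 to 18.1 CPM in the Rag1-/- labelled libraries. Right, the percent of that sum assigned to Hspa1b, which ranged from 24.7% to 39.1% in WT and from 33.2% to 33.5% in the Rag1-/- labelled libraries.

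Hsph1 encodes Hsp105, an Hsp110 family protein that recharges Hsp70 with ATP and helps it to take aggregates apart. It (chr5:149616845-149636336, minus strand) was at 229, 206 and 209 CPM in WT and at 189, 178 and 188 CPM in the Rag1-/- labelled libraries. All WT libraries were above all others. The means were 215 ± 12.7 and 185 ± 6.20 CPM (SD, n = 3), a difference of -14.0% and a log2 fold change of -0.22 (SE 0.05, 95% interval -0.33 to -0.10, adjusted p = 0.312 by limma-trend, exact permutation p = 0.1). This was the smallest adjusted p among the 10 genes.

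Dnajb1 encodes Hsp40, the J protein that brings substrates to the inducible Hsp70 and starts its ATP hydrolysis. Dnajb1 (chr8:83608175-83612653, plus strand) was at 57.9, 58.6 and 56.5 CPM in WT and at 52.4, 52.6 and 54.4 CPM in the Rag1-/- labelled libraries. The replicates of each group lay within 3 CPM of each other, the tightest of the 6 stress-inducible genes, with coefficients of variation of 1.91% and 2.00%. The difference between means, -7.86%, was smaller than that of Hsph1, and the log2 fold change was -0.12 (SE 0.04, 95% interval -0.21 to -0.02, adjusted p = 0.373 by limma-trend, exact permutation p = 0.1). Its unadjusted p was above 0.05 with median-of-ratios rescaling (log2 fold change -0.08), with quantile normalization, with the replicate block, with a term for the libraries high in the transcript Xist, and without WT replicate 1, WT replicate 2, or replicate 1 or 2 labelled Rag1-/-.

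Hspb1 encodes Hsp27, a small heat shock protein that holds unfolded proteins in large oligomers without using ATP. It (chr5:135887919-135889563, plus strand) was at 10.9, 10.6 and 11.3 CPM in WT and at 10.02, 8.59 and 12.3 CPM in the Rag1-/- labelled libraries. The latter group held both the highest and the lowest library. Its log2 fold change of -0.10 (SE 0.12, 95% interval -0.38 to 0.18, adjusted p = 0.772 by limma-trend) turned to 0.02 without replicate 2 labelled Rag1-/-. Bag3, which releases ADP from Hsp70 and links it to small heat shock proteins and to autophagy, also had overlapping groups. Bag3 (chr7:128523583-128546979, plus strand) was at 19.0, 26.6 and 22.1 CPM in WT and at 22.7, 16.4 and 24.9 CPM in the others, a log2 fold change of -0.09 (SE 0.16, 95% interval -0.46 to 0.28, adjusted p = 0.851 by limma-trend). Its sign also changed with 1 library, to 0.04 without WT replicate 2 and to 0.09 without replicate 2 labelled Rag1-/-.

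**Figure D3:**
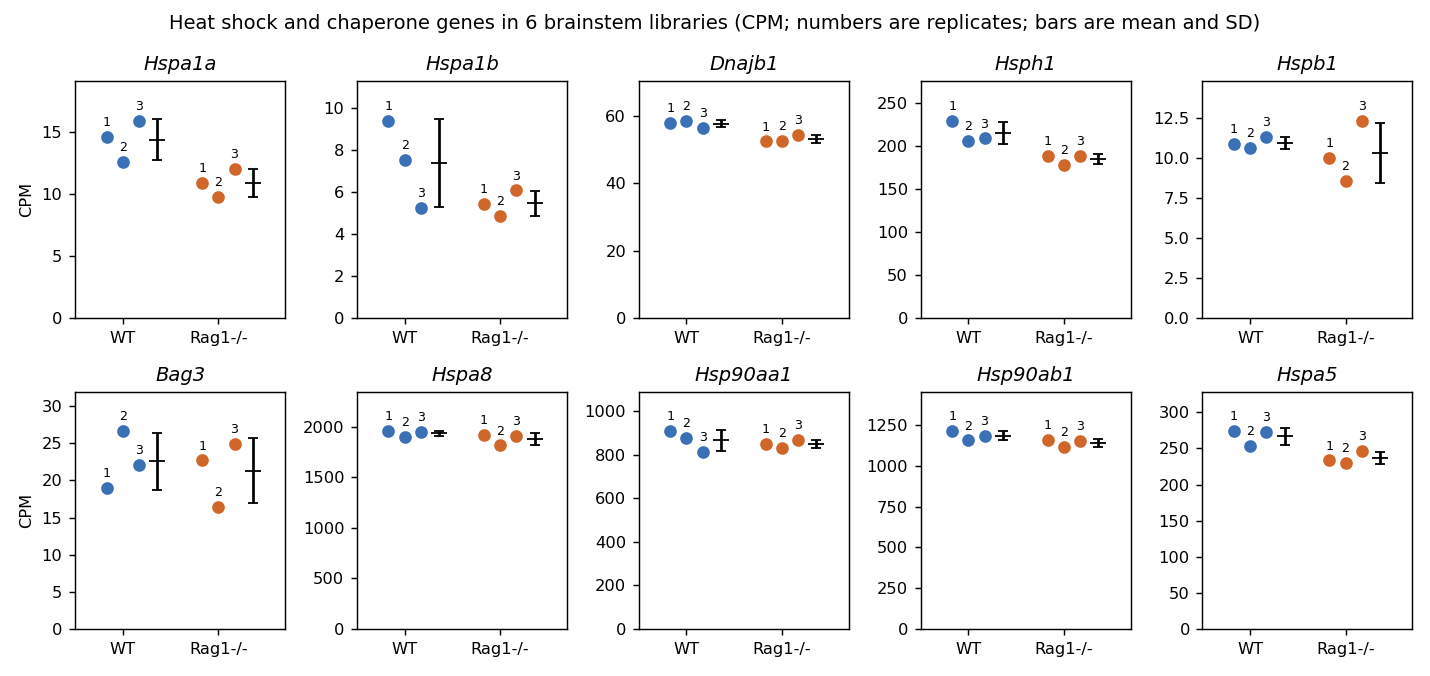
CPM of each of the 10 genes, 1 panel per gene with its own linear axis from 0. Points are libraries numbered by replicate, in WT (blue) and labelled Rag1-/- (orange), and bars are the mean and SD of 3 libraries. The groups do not overlap for Hspa1a, Dnajb1, Hsph1 and Hspa5, and they overlap for the other 6 genes.

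The promoter windows of 7 of the 10 genes were found in the RefSeq set; those of Hspa8, Hsp90aa1 and Hsp90ab1 were not. Besides the Hspa1 pair, Hspb1 and Hsph1 held a pair of heat shock units, and they are shown because complete separation was found for Hsph1 and not for Hspb1. In Hspb1 the letters GAANNTTC occurred 117 to 110 and 97 to 90 bases before the start. In Hsph1 the outward pair TTCNNGAA occurred 33 to 26 bases before it, letters that also read the same on both strands and were present in 7.17% of all windows. Neither pair was found in the windows of Dnajb1 and Bag3, which says only that these letters are not in those 250 bases. The units are in capitals.
Hspb1 (chr5:135887669-135887918, plus strand): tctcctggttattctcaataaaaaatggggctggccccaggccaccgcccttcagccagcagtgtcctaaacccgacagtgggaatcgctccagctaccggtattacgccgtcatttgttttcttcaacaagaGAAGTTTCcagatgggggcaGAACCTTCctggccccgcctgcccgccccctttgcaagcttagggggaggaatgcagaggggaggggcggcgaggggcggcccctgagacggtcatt
Hsph1 (chr5:149636337-149636586, minus strand): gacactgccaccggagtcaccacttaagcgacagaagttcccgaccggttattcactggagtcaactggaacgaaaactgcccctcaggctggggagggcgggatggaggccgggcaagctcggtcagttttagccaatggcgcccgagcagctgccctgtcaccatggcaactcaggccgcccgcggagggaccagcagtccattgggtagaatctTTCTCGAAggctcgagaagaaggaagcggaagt

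The abundant cytosolic chaperones had the smallest differences of the 10. Hspa8 encodes the constitutive Hsp70 (Hsc70), which also strips clathrin from endocytic vesicles. It (chr9:40801273-40805199, plus strand) was at 1954, 1902 and 1945 CPM in WT and at 1916, 1814 and 1908 CPM in the Rag1-/- labelled libraries. Only replicate 2 labelled Rag1-/- stood below the rest, and the means of 1934 ± 28.1 and 1879 ± 56.6 CPM (SD, n = 3) differed by -2.80%. The log2 fold change was -0.04 (SE 0.05, 95% interval -0.16 to 0.08, adjusted p = 0.776 by limma-trend) and became 0.0015 with median-of-ratios rescaling.

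Hsp90aa1 and Hsp90ab1 encode the stress-responsive and the constitutive form of cytosolic Hsp90. Hsp90aa1 (chr12:110691036-110696395, minus strand) was at 907, 876 and 811 CPM in WT and at 849.9, 830.0 and 866 CPM in the Rag1-/- labelled libraries, where all 3 lay between the highest and the lowest WT library. Its log2 fold change of -0.03 (SE 0.05, 95% interval -0.15 to 0.10, adjusted p = 0.874 by limma-trend) became 0.02 with median-of-ratios rescaling, 0.07 with a term for the Xist-high libraries and 0.01 without WT replicate 1. Hsp90ab1 (chr17:45567778-45573261, minus strand) was at 1212, 1155 and 1185 CPM in WT and at 1158, 1115 and 1150.5 CPM in the others. The groups overlapped at 1 library, replicate 1 labelled Rag1-/-, which was above WT replicate 2. Its log2 fold change was -0.05 (SE 0.05, 95% interval -0.16 to 0.05, adjusted p = 0.676 by limma-trend) and became -0.01 with median-of-ratios rescaling. For these 3 genes the intervals reach no further than -0.16 and 0.10 on the log2 scale, and a difference within them cannot be told from 0 with 3 libraries per group.

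Hspa5 encodes BiP, the Hsp70 of the ER, which binds nascent secretory proteins and holds the sensors of the unfolded protein response inactive. Its promoter is shown because it carries the element of that response rather than a heat shock pair. The capitals mark the ER stress element, CCAAT followed after 9 bases by CCACG, 65 to 47 bases before the start. Searched on both strands, it was present in 0.113% of all windows. The window also holds 4 copies of CCAAT, counting both strands, 1 of them inside the element, and 33.8% of all windows held at least 1.
Hspa5 (chr2:34771840-34772089, plus strand): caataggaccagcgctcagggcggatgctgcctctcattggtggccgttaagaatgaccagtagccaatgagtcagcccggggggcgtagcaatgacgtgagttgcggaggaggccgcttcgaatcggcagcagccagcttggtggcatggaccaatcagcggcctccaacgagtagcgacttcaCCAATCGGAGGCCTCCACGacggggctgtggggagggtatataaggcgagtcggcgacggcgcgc

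Hspa5 (chr2:34772090-34776529, plus strand) was at 274, 253 and 273 CPM in WT and at 233, 230.1 and 246 CPM in the Rag1-/- labelled libraries. No library crossed over, although WT replicate 2 and replicate 3 labelled Rag1-/- were separated by less than the spread of either group. The means of 267 ± 11.6 and 237 ± 8.47 CPM (SD, n = 3) differed by -11.3%, a log2 fold change of -0.17 (SE 0.05, 95% interval -0.28 to -0.06, adjusted p = 0.335 by limma-trend, exact permutation p = 0.1). Over all settings and libraries left out, its log2 fold change stayed between -0.21 and -0.13.

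Levels between genes were compared per length, as CPM divided by the length in kb of the longest reference transcript. By the median of the 6 libraries the order was Hspa8 (605 CPM per kb), Hsp90ab1 (459), Hsp90aa1 (261), Hspa5 (68.0), Hsph1 (41.5), Dnajb1 (18.5), Hspb1 (11.5), Bag3 (8.74), Hspa1a (4.15) and Hspa1b (2.05 CPM per kb). The constitutive Hsp70 thus stood above 99.8% of the genes tested that have a length and Hspa1b above 35.3%. Of the windows of 50 bases in the Hspa1a transcript, 58.8% were also in Hspa1b. If reads shared by this pair were lost, the levels of Hspa1a and Hspa1b are too low and their places could be higher. Ranges of neighbours in this order overlapped over the 6 libraries for Hspb1 and Bag3 and for Hspa1a and Hspa1b alone, and within each library the order held for every neighbouring pair in 6 of 6. The length of the longest protein-coding transcript gave the same order, with Hspa8 at 799 and Hsph1 at 52.0 CPM per kb. The 10 genes together took 4509 to 4688 CPM in WT and 4259 to 4469 CPM in the Rag1-/- labelled libraries, a difference between means of -4.05% that Hspa8, Hsp90ab1 and Hsp90aa1 dominate by their level.

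The genes that varied most between replicates were the low ones. Coefficients of variation in WT and in the Rag1-/- labelled libraries were 28.3% and 11.1% for Hspa1b, 17.0% and 20.7% for Bag3, and 3.29% and 18.3% for Hspb1, against 1.45% and 3.01% for Hspa8. The smallest read number behind a value was estimated at 153 for Hspa1b, which gives a counting error of 8.09%, and at 270 for Hspb1, 308 for Hspa1a and 515 for Bag3. For Hspa8 it was 57100. In each of these 4 low genes the spread of at least 1 group was wider than the counting error of its lowest library.

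Within each gene, the libraries were then set on a common scale as z-scores of log2(CPM + 0.1) over the 6 libraries. Replicate 2 labelled Rag1-/- was the lowest library for 8 of the 10 genes, where 19.3% of all genes tested were lowest, and it lay below the gene's mean for all 10. WT replicate 1 was the highest library for 6 of 10, where 20.1% of all genes tested were highest. The mean z-score of the 6 stress-inducible genes (Hspa1a, Hspa1b, Dnajb1, Hsph1, Hspb1 and Bag3) was 0.75, 0.60 and 0.37 in WT and -0.52, -1.31 and 0.12 in the Rag1-/- labelled libraries. The mean of replicate 3 labelled Rag1-/- combines 1.27 for Hspb1 and 0.78 for Bag3 with values between -0.62 and -0.11 for the other 4 genes. Replicate 2 labelled Rag1-/- was also the shallowest library and had the lowest values of the hindbrain genes Hoxa5 (0.349 CPM, against 2.04 to 9.93 CPM in the others) and Hoxb3 (0.412 CPM, against 2.501 to 7.86 CPM), and the part of these in the result was not tested.

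Xist separates WT replicates 1 and 2 from the other 4 libraries, and a like-for-like view leaves WT replicate 3 as the single WT library. It was above all 3 Rag1-/- labelled libraries for 6 of the 10 genes (Hspa1a, Dnajb1, Hsph1, Hspa5, Hspa8 and Hsp90ab1), beside 41.9% of all genes tested. It was below all 3 for Hsp90aa1, beside 20.8% of all genes tested, and within their range for Hspa1b, Hspb1 and Bag3. The fit with a term for the Xist-high libraries tests this contrast, with the spread taken from the replicates and WT replicate 3 assumed to vary like them. None of the 10 had an adjusted p under 0.05 in it (smallest adjusted p = 0.108 by limma-trend), and Hspa1a (-0.55), Hspa5 (-0.21) and Hsph1 (-0.18) had an unadjusted p of 0.05 or less, as did 16.3% of all genes tested. Choroid plexus markers split the libraries as Xist does, since the sum of 5 transcripts reached 958 CPM in WT replicate 1 and 1214 CPM in WT replicate 2, against 474 to 618 CPM elsewhere, and their part in the result was not tested. The pituitary transcripts in WT replicate 3 move with it, and their part was not tested.

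**Figure D4:**
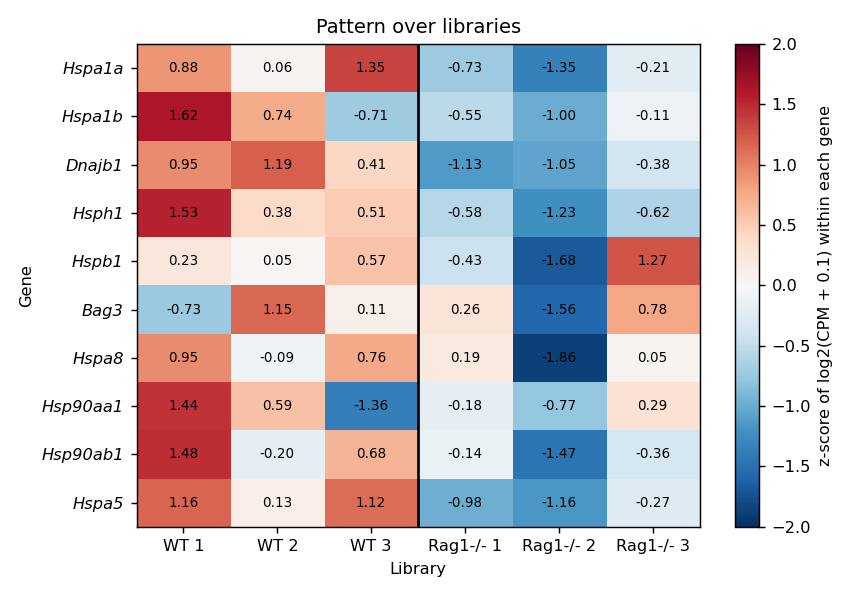
Z-score of log2(CPM + 0.1) within each gene, for the 10 genes (vertical axis) in the 6 libraries (horizontal axis), from blue (low) to red (high), with the line between WT and the Rag1-/- labelled libraries. Replicate 2 labelled Rag1-/- is below 0 for all 10 genes and lowest for 8, and WT replicate 1 is highest for 6.

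Among the genes whose pattern over the 6 libraries was most like the mean z-score of the stress-inducible genes, by the mean absolute difference of z-scores, were Nol10 (0.152), Tcn2 (0.159), Mapk8ip3 (0.162) and Clic5 (0.180). A difference of at most 0.3 was found for 165 of 16658 genes outside the lists. The stress-inducible genes themselves lay between 0.336 for Hsph1 and 0.667 for Bag3, each being part of the mean it was compared with. With 6 libraries such likeness is a description only.

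Another 82 chaperone genes and their regulators, of which 81 were tested, were taken by list. None had an adjusted p under 0.05 (limma-trend; smallest adjusted p = 0.319, for Hsf1), 14 had an unadjusted p of 0.05 or less, all lower in the Rag1-/- labelled libraries, and 20 were lower in all 3 of these libraries than in any WT library. The same held for 9.29% and 14.4% of all genes tested. The median log2 fold change of the 81 was -0.07 beside -0.05 for all genes tested, and with median-of-ratios rescaling it was -0.02 beside -0.01. The counts moved with single libraries, from 5 with an unadjusted p of 0.05 or less without WT replicate 1 (8.79% of all genes tested, in either direction) to 21 without WT replicate 3 (11.6%), and were 8 and 9 without replicates 1 and 2 labelled Rag1-/- (6.63% and 10.3%). With median-of-ratios rescaling they were 6, beside 9.12% of all genes with such a p in either direction, and 13, beside 7.58%. Log2 fold changes below 0 were found for 76 of the 81 without rescaling (67.7% of all genes tested) and for 57 with it (53.0%). Separation without a library, which is easier to reach, was found for 22 of these genes (without replicate 2 labelled Rag1-/-) to 37 (without WT replicate 3) and for 19.1% to 23.5% of all genes tested.

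Hsf1, the transcription factor that switches on the inducible genes, was the only 1 of 5 genes of heat shock factors and their regulator Hsbp1 with complete separation, beside 14.4% of all genes tested, at 26.3, 26.6 and 26.4 CPM in WT and 21.9, 23.6 and 23.3 CPM in the Rag1-/- labelled libraries (log2 fold change -0.21, SE 0.05, adjusted p = 0.319 by limma-trend). Its WT values were nearly equal and all above the other group. Hsbp1, which binds heat shock factor 1 and restrains it, was at a log2 fold change of 0.09, and Hsf4, best known from the lens, at -0.16, both with overlapping groups.

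Among 10 other Hsp70 and Hsp110 genes, all 10 log2 fold changes were below 0 (67.7% of all genes tested) and 2 had complete separation downward (14.4% of all genes tested). Hyou1, the Hsp110 of the ER that serves BiP, was at 115, 108 and 117 CPM in WT and 95.7, 102 and 103 CPM in the Rag1-/- labelled libraries (log2 fold change -0.18, adjusted p = 0.331 by limma-trend). Hspa4, a cytosolic Hsp110, was at 204, 199 and 196 against 176, 179 and 187 CPM (log2 fold change -0.14, adjusted p = 0.340 by limma-trend). Hspa4l, close kin of Hspa4, had -0.11 with overlapping groups.

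Of 16 J protein genes, 3 had complete separation, beside 14.4% of all genes tested, namely Dnajc3, an ER partner of BiP (log2 fold change -0.12), Dnajc5, the cysteine string protein of synaptic vesicles (-0.08), and Dnajc6, the auxilin that works with Hsc70 on clathrin coats (-0.08). Only Dnajc3 had an unadjusted p of 0.05 or less (adjusted p = 0.355 by limma-trend). Of 13 genes of Hsp90 relatives and co-chaperones, St13 (-0.10) and Fkbp4 (-0.10) had complete separation, beside 14.4% of all genes tested. St13 stabilises Hsp70 with its substrate, and Fkbp4 is the immunophilin that carries steroid receptors. Hsp90b1, the Hsp90 of the ER (-0.08), overlapped. Fkbp5, an immunophilin induced by glucocorticoids, which was chosen after its values were seen, was at 70.1 CPM in WT replicate 3 and at 31.8 to 37.8 CPM in the other 5 libraries. Of 7 BAG and exchange factor genes, Bag5 (-0.11), Bag4 (-0.12) and Bag6 (-0.05) were lower in all 3 libraries, beside 14.4% of all genes tested. All of these J protein, Hsp90 and BAG genes had an adjusted p of at least 0.355 by limma-trend.

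Among 18 ER chaperones and genes of the unfolded protein response, a list that overlaps those above (Hyou1, Dnajc3 and Hsp90b1 among others), all had a log2 fold change below 0, beside 67.7% of all genes tested. Of these, 7 were lower in every Rag1-/- labelled library than in any WT library and 6 had an unadjusted p of 0.05 or less, beside 14.4% and 9.29% of all genes tested. Besides Hyou1 they included Herpud1, which helps to degrade unfolded ER proteins, at 54.2, 58.9 and 61.4 CPM in WT and 51.4, 50.02 and 52.5 CPM in the others (log2 fold change -0.18, adjusted p = 0.345 by limma-trend). Xbp1, whose spliced form is the main transcription factor of the response, was at 61.2, 60.2 and 55.2 against 52.1, 52.7 and 53.3 CPM (log2 fold change -0.16, adjusted p = 0.354 by limma-trend). Gene-level values do not separate the spliced from the unspliced Xbp1 transcript. Chaperonins form ring-shaped folding chambers, in the cytosol from Cct proteins, which fold actin and tubulin, and in mitochondria from Hspd1 and Hspe1. Of 10 such genes 4 had complete separation, beside 14.4% of all genes tested, among them Cct7 (-0.11), Cct3 (-0.10) and Cct4 (-0.09).

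Other small heat shock genes went both ways. Of 8, 7 were tested, and none had an unadjusted p of 0.05 or less or complete separation downward, beside 9.29% and 14.4% of all genes tested. Their log2 fold changes ran from -0.16 to 0.36, with a median of -0.01. Hspb6 had a log2 fold change of 0.11, Hspb8, the partner of Bag3, had -0.06, and Hspb2 had 0.36 at a level under 1 CPM in every library. Cryab, a small heat shock protein made by oligodendrocytes in brain, which was chosen after its values were seen, was at 210.1 to 221 CPM in WT and 198 to 221 CPM in the Rag1-/- labelled libraries.

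Rbm3, an RNA-binding protein made in the cold, went the other way. It was at 26.7, 27.9 and 27.7 CPM in WT and at 29.98, 34.7 and 29.8 CPM in the Rag1-/- labelled libraries, where all 3 were higher than any WT library (log2 fold change 0.20, SE 0.07, adjusted p = 0.372 by limma-trend). Such separation upward was found for 3.98% of all genes tested. Cirbp, the other cold-inducible gene examined, had a log2 fold change of -0.01. Of 11 immediate early genes, which respond to handling and neuronal activity within minutes, Dusp1 alone had complete separation, beside 14.4% of all genes tested, at 19.8, 21.2 and 21.1 CPM against 15.4, 17.9 and 15.3 CPM (log2 fold change -0.36, SE 0.08, adjusted p = 0.254 by limma-trend), while Nr4a1 (-0.34) and Fos (-0.19) overlapped. The median of the 11 was -0.09.

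**Figure D5:**
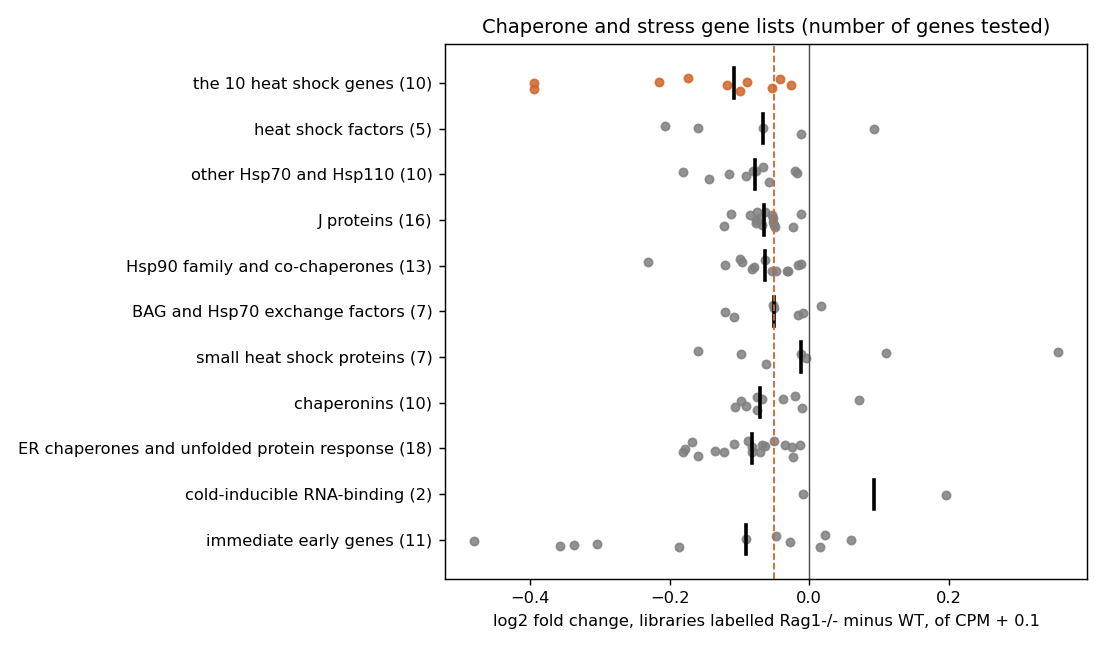
Log2 fold change (Rag1-/- labelled libraries minus WT, of CPM + 0.1) of each gene in the 10 heat shock genes (orange) and in 10 lists of related genes (grey), with the number tested in brackets. Black bars are list medians, from -0.11 for the 10 genes to 0.09 for the cold-inducible pair, and the dashed line is the median of all genes tested, -0.05.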

How the data were processed

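Per the labels and the study's methods, RNA from 3 WT and 3 Rag1-/- brainstems was sequenced, with alignment to mm10 by STAR 2.5.3a (version from the submitters' processing notes) and gene counts on RefSeq models from Partek Flow. The authors deposited these as CPM, each count divided by the size of its library, with 0.0001 CPM as the lowest value. Whether genes were filtered before deposit and whether reads were counted by strand or split between copies is not given in the sources used here, and reads shared by near-identical copies such as Hspa1a and Hspa1b may have been lost or divided. End coordinates are 1 base before the deposited stop. Separate brainstem samples are replicates, so p-values measure the spread between these samples.

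The CPM of 1 read was read from the steps of low values. Of these values 85.8% to 87.2% came out as whole read numbers (tolerance 0.1 read), too few to rebuild a count table. The depth estimated from these steps covers counting error only. From the deposited CPM, log2(CPM + 0.1) was computed, which understates the change of low genes. Every gene at or above a mean of 0.1 CPM entered a test over the whole table with limma-trend (limma 3.58.1, R 4.3.3) and Benjamini-Hochberg adjustment, and single genes with exact two-sided permutation tests (Python 3.11.15). Only the limma-trend fit was checked on simulated data, with differences larger than that of any heat shock gene here, so smaller ones were not checked. Replicate numbers did not pair the samples, with correlations of deviations of 0.09, -0.22 and -0.02 for replicates 1 to 3.

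The 10 genes, the lists and the marker lists were chosen with earlier results of these data known. The genes named are the 10, Rag1, at most the 3 genes with the smallest unadjusted p of each related list, and the 5 genes outside the lists with the most similar library pattern, of which 1 is not reported here. Xist, Ddx3y, Slc1a2, Hoxa5 and Hoxb3 are named as checks of the libraries, Slc1a2 and the Hox genes after their values were seen. Other genes outside this rule are marked in the text. Settings varied were the pseudocount, the filter on low values, the scaling and the variance model, and further fits had a replicate block, a term for the Xist-high libraries, the Hspa1a and Hspa1b sum as 1 gene, and leaving out each library in turn. Coding identity and lengths came from GENCODE transcripts with Biopython 1.88, and promoters from RefSeq on GRCm38.p6.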

Additional observations from a re-analysis of the deposited data

How the results depend on the processing

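None of the 10 heat shock genes had an adjusted p under 0.05 (limma-trend) in any of the 17 alternatives, with 3 to 5 at an unadjusted p of 0.05 or less (4 as reported). Their smallest adjusted p ranged from 0.108 with a term for the Xist-high libraries to 0.723 without replicate 1 labelled Rag1-/-. The median of the 10 was -0.066 with median-of-ratios rescaling, and between -0.21 and -0.074 with 1 library left out (-0.11 as reported). With the Xist term, 1 of the other chaperone genes had an adjusted p under 0.05, namely Fkbp5 (log2 fold change -0.97, adjusted p = 0.00584 by limma-trend, against 0.748 without the term), a value that rests on WT replicate 3 alone as WT.

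Signs turned for Hspa1b (0.056) and Hsp90aa1 (0.066) with the Xist term, and for Hspa8 (0.0015) and Hsp90aa1 (0.017) with median-of-ratios rescaling. With 1 library left out, Hsp90aa1 ranged from -0.071 to 0.0096, Hspb1 from -0.23 to 0.024 and Bag3 from -0.21 to 0.088. Of the other chaperone genes, 14 had an unadjusted p of 0.05 or less as reported, 6 with median-of-ratios rescaling, quantile normalization or the replicate block (9.12%, 8.92% and 8.10% of all genes tested), 7 with the Xist term (16.3%), 8 without the trend of limma (9.79%) and 5 to 21 with 1 library left out (6.63% to 12.1%), against 11.6% as reported. Over all genes the count with an adjusted p under 0.05 was 8 as reported and 134 with the Xist term. The causes were not tested, except that fewer libraries enter when 1 is left out. Complete separation downward was found for 4 of the 10 after either rescaling (7.58% and 6.82% of all genes tested) and for 4 to 6 with 1 library left out (19.1% to 23.5%). Shared replicate numbers were tried as a block although they do not pair the samples: with the replicate block, 0 of the 10 had an adjusted p under 0.05, 3 had an unadjusted p of 0.05 or less, and their median was -0.11.

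Count tests by edgeR and DESeq2 were not run, since the low values did not give a table of whole reads. With 3 libraries per group the exact permutation test cannot go below 0.1. Depth limits Hspa1b most, with 153 reads estimated in its lowest library. The Xist-high and pituitary-rich libraries are all WT, and the single Xist-low WT library is the pituitary-rich one. Their part in a difference between the labels and that of genotype can therefore not be told apart.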
